A study of Mus musculus with 10 samples.

Results

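The 7 genes described are those of the IL-4 and IL-13 axis: the ligands Il4 and Il13, the receptor chains Il4ra, Il2rg, Il13ra1 and Il13ra2, and the transcription factor Stat6. They were chosen by symbol among 43432 gene identifiers, and all 7 were found and passed the filter on low counts. RNA was sequenced from sorted tuft cells, a rare chemosensory cell type of epithelia, taken from the thymus (n = 4 libraries) or the small intestine (SI, n = 3), and from SI epithelium negative for the tuft cell reporter (n = 3). All mice were naive males of 12 weeks on the C57BL6 background and homozygous for Flare25, a reporter allele of Il25, so the SI epithelium carried the allele too. Tuft cells were DAPI-, CD45-, EPCAM+ and Flare25+, whereas SI epithelium was the Flare25- part of the same gate, so the groups are defined by Il25 reporter expression. Each library came from 1 mouse, with 1350 to 1900 thymic tuft cells, 35000 to 36000 SI tuft cells or 52000 to 57000 SI epithelial cells. The authors left out 1 SI tuft and 1 SI epithelium library that failed their quality control, per the series' design text. Thymic cells were released by enzymes and intestinal cells by DTT and EDTA, so organ, dissociation and cell number cannot be told apart in any comparison with the thymus.

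IL-4 and IL-13 are neighbouring type 2 cytokine genes, usually made by T helper 2 cells, group 2 innate lymphoid cells, mast cells and basophils. IL-4 is bound by IL-4Rα, encoded by Il4ra, which pairs either with the common gamma chain of Il2rg (the type I receptor) or with Il13ra1 (the type II receptor). IL-13 uses the type II receptor, and Il13ra2 encodes a second IL-13-binding chain regarded mainly as a decoy. The type I receptor signals through JAK1 and JAK3 and the type II receptor through JAK1, TYK2 and JAK2, and both phosphorylate STAT6. In the gut, IL-13 signalling through Il4ra and Stat6 in epithelial progenitors is known to expand tuft and goblet cells.

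The 250 bases before the RefSeq transcription start are shown for Il13 and Il2rg, and for Il4, whose window holds a STAT-type match. Il13 and Il2rg are the ligand and the signalling receptor chain that were abundant in thymic tuft cells and low in both SI groups. The sequences are RefSeq's on build GRCm38.p6, 5′ to 3′ on the gene's own strand, and capitals mark motif matches. Il13 lies at chr11:53634703-53634952 (minus strand), Il4 at chr11:53618666-53618915 (minus strand) and Il2rg at chrX:101268256-101268505 (minus strand).
Il13: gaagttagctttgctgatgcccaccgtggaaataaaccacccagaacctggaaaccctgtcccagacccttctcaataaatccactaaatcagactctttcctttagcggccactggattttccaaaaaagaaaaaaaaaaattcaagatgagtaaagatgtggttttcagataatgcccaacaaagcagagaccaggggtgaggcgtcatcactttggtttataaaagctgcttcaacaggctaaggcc
Il4: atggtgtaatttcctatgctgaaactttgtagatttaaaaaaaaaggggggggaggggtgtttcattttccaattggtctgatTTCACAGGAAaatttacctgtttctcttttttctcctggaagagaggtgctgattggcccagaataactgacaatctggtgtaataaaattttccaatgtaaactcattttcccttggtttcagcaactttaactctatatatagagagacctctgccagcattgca
Il2rg: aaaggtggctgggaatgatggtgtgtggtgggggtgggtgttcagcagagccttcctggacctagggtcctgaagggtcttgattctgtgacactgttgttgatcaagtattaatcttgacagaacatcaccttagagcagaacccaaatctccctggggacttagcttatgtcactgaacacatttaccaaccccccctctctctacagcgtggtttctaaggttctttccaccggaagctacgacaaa
For Il4ra, 30 bases at chr7:125552121-125552150 (plus strand) are shown because they hold an octamer, the element bound by POU factors, the family of the tuft cell regulator Pou2f3.
Il4ra: tggggtggggcATGCAAATaagccagcgat

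All 7 members had a promoter in the RefSeq table, in 8 windows, since Il4 has 2 starts. Both strands were searched for STAT motifs, made of TTC and GAA with 4 or 3 bases between them, and for the octamer ATGCAAAT; no 2 matches overlapped in the members. The STAT motif with 4 bases between was found in 5.85% of 32851 promoter windows of the same length, and among the members in 1 Il4 window, 167 bases before the start. The octamer was found in 1.60% of windows and among the members in that of Il4ra, 139 bases before the RefSeq start, a position that lies inside the first exon of some GENCODE transcripts. The STAT motif with 3 bases between was found in 7.02% of windows and in none of the members'. These matches describe the letters of the windows and are not evidence of binding.

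Libraries held 38659882 to 73574745 gene counts. Levels are CPM, counts scaled to the TMM-adjusted library size, and 3 counts in a library correspond to 0.0433 to 0.0817 CPM. The tuft markers, among them Trpm5 and Avil, summed to 5948 to 7146 CPM in thymic tuft, 13851 to 17276 CPM in SI tuft and 143 to 252 CPM in SI epithelium libraries, and Krt5 and H2-Aa of medullary thymic epithelium led a list that summed to 2550 to 2928 CPM in thymic tuft, 0.953 to 4.42 CPM in SI tuft and 12.1 to 19.4 CPM in SI epithelium libraries. Mitochondrial genes took 4.38% to 5.97% of thymic tuft, 24.1% to 33.5% of SI tuft and 18.6% to 23.7% of SI epithelium counts. Each SI epithelium library held counts of thymic genes mainly in the proportions of 1 thymic library, at 0.585% to 0.601% of its level (median over 282 genes nearly absent from SI tuft cells). A joint fit over all thymic libraries put the partner's share lower, at 0.442% to 0.525%, with at most 0.050% from any other. The median is the share used below. Thymic libraries 1 to 3 in turn held 0.860% to 0.959% of an SI epithelium library's counts (11 genes).

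Il13 (ENSMUSG00000020383, GRCm38 chr11:53631324-53634702, minus strand) was abundant in thymic tuft cells and nearly absent from SI tuft cells. The thymic tuft libraries 1 to 4 had 168, 197, 238 and 293 CPM (10191, 10439, 16487 and 15415 counts), against 0.0486, 0.0272 and 0 CPM (2, 1 and 0 counts) in SI tuft libraries 2 to 4. Every thymic library stood far above every SI tuft library. Means were 224 ± 54.4 CPM in thymic tuft (SD, n = 4) and 0.0253 ± 0.0244 CPM in SI tuft cells (SD, n = 3). The edgeR quasi-likelihood test over all 10 libraries gave a log2 fold change of 12.95 (SE 0.55, adjusted p = 8.84e-09). With 3 counts over the SI tuft libraries, the ratio of summed counts was 8602, with an exact 95% interval of 2943 to 41713 that covers counting error only. Per kb of exon, Il13 ranked 97 of 19134 genes in thymic tuft cells at 186 CPM per kb, against rank 16709 in SI tuft cells.

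SI epithelium libraries 1 to 3 had 1.58, 1.17 and 0.681 CPM of Il13 (84, 55 and 45 counts). These counts were 0.509%, 0.527% and 0.442% of those of the thymic library whose genes each one shares. All lay below the 0.585% to 0.601% found as the median over the 282 thymic genes. By the joint fit the partner shares were 0.442%, 0.468% and 0.525%, which Il13 exceeded in libraries 1 and 2. No Il13 count was left after the median share was subtracted, so the files give no Il13 level of SI epithelium above that share. Against SI epithelium, Il13 was higher in thymic tuft cells by 7.62 on the log2 scale (SE 0.39, adjusted p = 3.07e-08), a value that the shared counts lower. In SI tuft against SI epithelium, edgeR called Il13 lower (log2 fold change -5.33, SE 0.60, adjusted p = 4.58e-05). That call was lost and its sign turned after subtraction (3.51, adjusted p = 0.116).

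**Figure D1:**
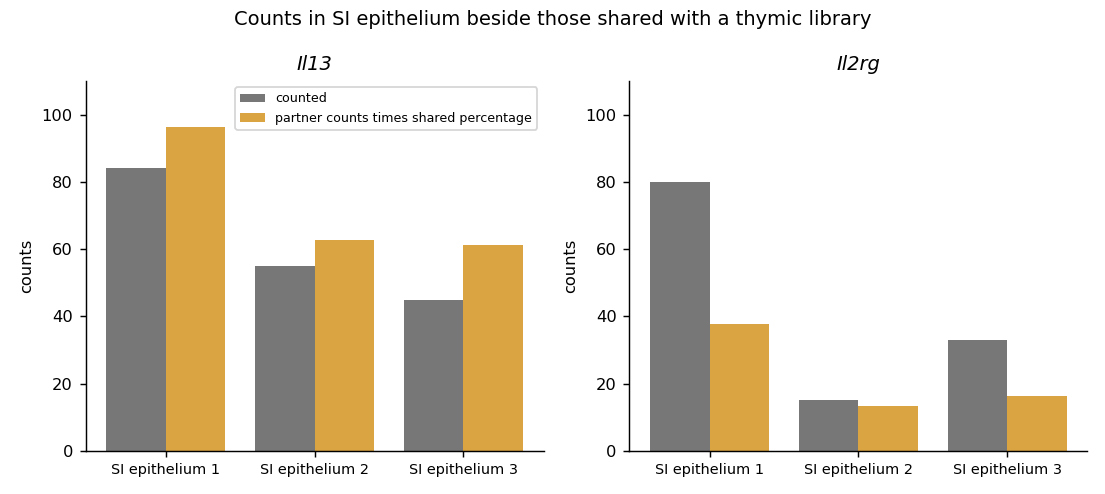
Counts of Il13 and Il2rg (y axis) in SI epithelium libraries 1 to 3 (x axis), as deposited and as the partner thymic library's counts times the shared percentage. For Il13 the deposited counts lie below the shared amount in each library, whereas for Il2rg they lie above it.

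Il4 (ENSMUSG00000000869, GRCm38 chr11:53602982-53618669, minus strand) was low everywhere. Thymic tuft libraries 1 to 4 had 91, 21, 61 and 9 counts, SI tuft libraries 2 to 4 had 5, 2 and 3 counts and SI epithelium libraries 1 to 3 had 1, 2 and 2 counts. All thymic counts lay above all SI counts, while the counts of both SI groups overlapped and were mostly at or under the floor of 3. The thymic libraries ranged widely. Means were 0.736 ± 0.587 CPM in thymic tuft (SD, n = 4), 0.0850 ± 0.0339 CPM in SI tuft (SD, n = 3) and 0.0305 ± 0.0118 CPM in SI epithelium libraries (SD, n = 3). By edgeR, Il4 was higher in thymic than in SI tuft cells (log2 fold change 3.08, SE 1.09, adjusted p = 0.0329) and than in SI epithelium (4.50, SE 1.18, adjusted p = 0.00747), while SI tuft cells and SI epithelium did not pass the test (1.42, adjusted p = 0.414). The first call was lost under 9 of 18 alternatives, with adjusted p from 0.0115 to 0.167, among them the removal of thymic library 1 or of any 1 SI library. The second was lost without SI epithelium library 1 (adjusted p = 0.0603) or 3 (0.0523).

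Markers of the usual cell sources of these cytokines were set beside the ligands. The list for mast cells, basophils and group 2 innate lymphoid cells summed to 76.3 to 113.5 CPM in thymic tuft, 1.12 to 3.17 CPM in SI tuft and 2.03 to 2.20 CPM in SI epithelium libraries. Of its 10 genes 7 could be tested, and 6 were called higher and 0 lower in thymic than in SI tuft cells, against 28.5% and 23.1% of all 19281 genes tested. Of the thymic sum Rora made 77.7 CPM and Gata3 6.89 CPM on average. The genes named next were chosen after their values were seen. Il1rl1, the IL-33 receptor, averaged 6.78 CPM in thymic and 0.0544 CPM in SI tuft libraries. The mast cell and basophil genes Fcer1a, Prss34 and Cma1 averaged 1.77, 1.25 and 1.10 CPM in thymic tuft libraries and were at 0 in SI tuft libraries, and all 3 were called higher. Cpa3 was not called (0.237 and 0.0998 CPM, adjusted p = 0.61), and Mcpt8 was at 0 counts in all 10 libraries. T cell and thymocyte markers summed to 17.4 to 35.9 CPM in thymic tuft, 24.8 to 35.5 CPM in SI tuft and 2.83 to 6.54 CPM in SI epithelium libraries. The part of these markers in the Il13 and Il4 levels was not tested.

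**Figure D2:**
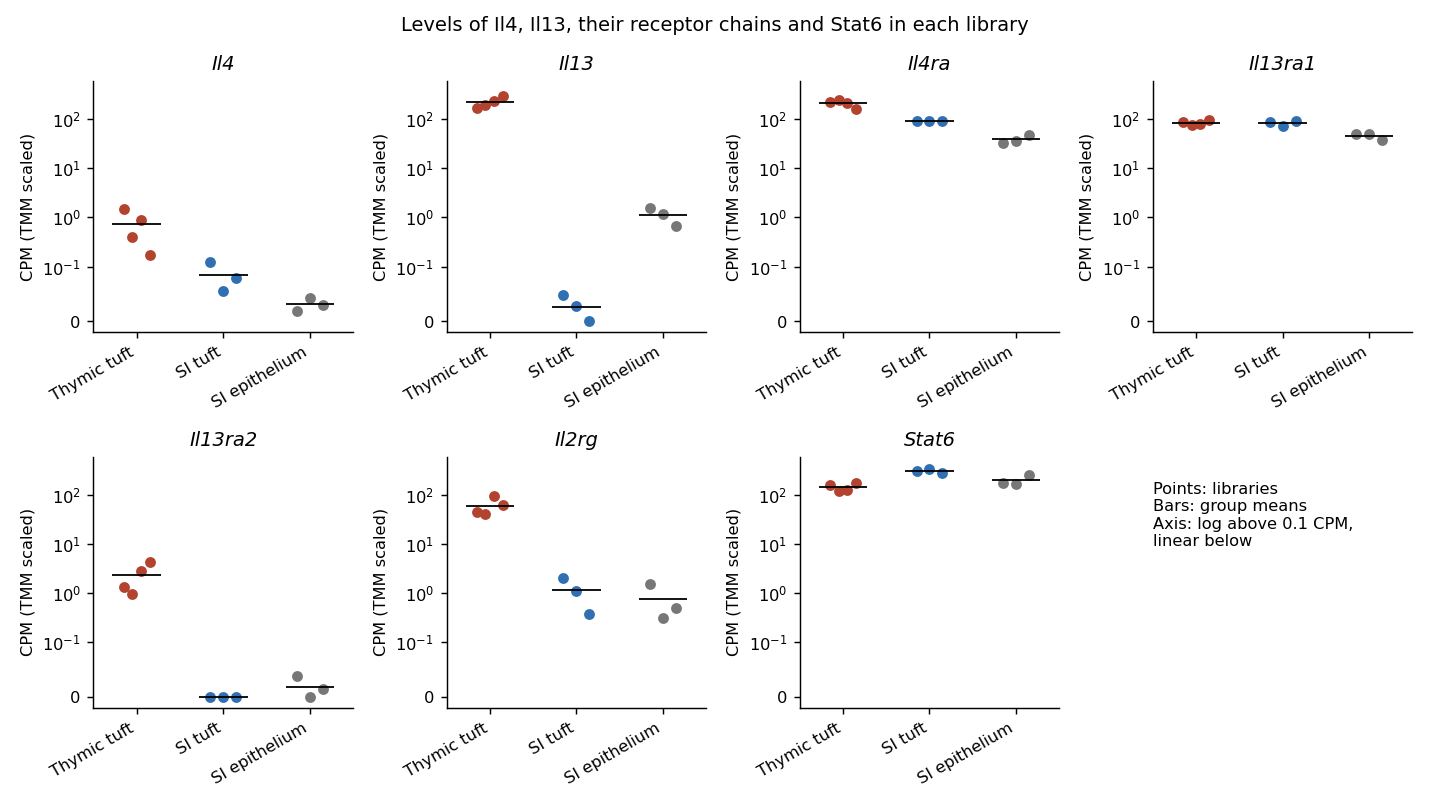
TMM-scaled CPM of the 7 members (y axis, logarithmic above 0.1 CPM and linear below) in thymic tuft, SI tuft and SI epithelium libraries; points are libraries and bars are group means. Thymic tuft libraries stand apart for Il13 and Il2rg, whereas Il13ra1 lies at 73.2 to 96.5 CPM in both tuft groups.

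Il4ra (ENSMUSG00000030748, GRCm38 chr7:125552120-125579474, plus strand), the chain common to both receptors, stepped up over the 3 groups. It had 228, 247, 219 and 165 CPM in thymic tuft libraries 1 to 4, 93.4, 90.8 and 91.0 CPM in SI tuft libraries 2 to 4, and 33.1, 36.9 and 48.6 CPM in SI epithelium libraries 1 to 3. No 2 groups overlapped. By edgeR, Il4ra was higher in thymic than in SI tuft cells by 1.23 on the log2 scale (SE 0.18, adjusted p = 0.000154) and than in SI epithelium by 2.44 (SE 0.19, adjusted p = 7.72e-07). Its exons share 571 bases with the antisense gene Gm44876, and the kits mark no strand, so reads of the pair cannot be told apart there.

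Il13ra1 (ENSMUSG00000017057, GRCm38 chrX:36112110-36171259, plus strand), the partner of Il4ra in the type II receptor, was level between the tuft groups and lower in SI epithelium. It had 87.3, 74.7, 80.9 and 96.5 CPM in thymic tuft libraries 1 to 4, 88.1, 73.2 and 90.7 CPM in SI tuft libraries 2 to 4, and 49.1, 49.1 and 38.5 CPM in SI epithelium libraries 1 to 3. Both tuft groups overlapped and stood above SI epithelium. The log2 difference between thymic and SI tuft cells was 0.01, with a 95% interval of -0.35 to 0.37 (edgeR adjusted p = 0.948), and thymic tuft cells were above SI epithelium by 0.90 (SE 0.17, adjusted p = 0.000886). SI tuft cells were above SI epithelium in both type II chains, by 1.21 for Il4ra and 0.88 for Il13ra1.

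Il2rg (ENSMUSG00000031304, GRCm38 chrX:101264378-101268255, minus strand), the common gamma chain, separated the 2 tuft populations. Thymic tuft libraries 1 to 4 had 45.0, 41.7, 93.4 and 63.5 CPM, SI tuft libraries 2 to 4 had 2.02, 1.09 and 0.370 CPM, and SI epithelium libraries 1 to 3 had 1.51, 0.318 and 0.500 CPM. Thymic library 3 was the highest and all thymic libraries lay above all SI libraries, while SI tuft and SI epithelium overlapped. By edgeR, Il2rg was higher in thymic than in SI tuft cells by 5.71 on the log2 scale (SE 0.71, adjusted p = 3.27e-05) and than in SI epithelium by 6.29 (SE 0.73, adjusted p = 1.82e-05). SI tuft cells and SI epithelium did not pass the test (0.58, 95% interval -0.79 to 1.96, adjusted p = 0.564), and the sign turned without SI tuft library 2 (-0.09). In SI epithelium libraries 1 to 3, 42, 2 and 17 of the 80, 15 and 33 counts were left after the share of thymic counts was subtracted. Il2rg shares 728 exon bases with the same-strand gene Gm20489, which had 0 counts in all libraries. Il2rg is also high in lymphocytes, whose T cell markers are given above; B cell markers, led by Cd79b, summed to 21.2 to 36.8 CPM in thymic tuft, 1.69 to 3.26 CPM in SI tuft and 0.637 to 1.68 CPM in SI epithelium libraries. Myeloid markers, led by Lyz2 and Itgam, summed to 226 to 281 CPM, 15.9 to 51.7 CPM and 20.2 to 25.5 CPM in those groups. Lyz2 alone averaged 183 CPM in thymic tuft libraries. Of 9 tested myeloid genes 6 were called higher and 1 lower in thymic than in SI tuft cells, against 28.5% and 23.1% of all genes. The lower one was Itgax, with 3 counts in thymic and 105 in SI tuft libraries. The sort took CD45- EPCAM+ cells, a gate meant to leave these cells out. Their part in the Il2rg level was not tested, and in bulk samples fewer cells of a type and less RNA per cell cannot be told apart.

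Il13ra2 (ENSMUSG00000031289, GRCm38 chrX:147383476-147429192, minus strand), the decoy chain, was detected in thymic tuft cells at a low level. Thymic tuft libraries 1 to 4 had 82, 52, 195 and 227 counts (1.35, 0.980, 2.82 and 4.32 CPM), SI tuft libraries had 0 counts each and SI epithelium libraries 1 to 3 had 2, 0 and 1 counts. The thymic mean was at least 30.4-fold higher than a floor of 3 counts per SI tuft library (edgeR adjusted p = 0.000833). Against the 3 counts of SI epithelium the ratio of summed counts was 131, with an exact 95% interval of 44.5 to 636 from counting error only (edgeR adjusted p = 0.00202).

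Stat6 (ENSMUSG00000002147, GRCm38 chr10:127642986-127660957, plus strand), the factor activated by both receptors, was the 1 member lower in thymic than in SI tuft cells. It had 162, 120, 126 and 175 CPM in thymic tuft libraries 1 to 4, 302, 336 and 280 CPM in SI tuft libraries 2 to 4, and 172, 168 and 259 CPM in SI epithelium libraries 1 to 3. The tuft groups did not overlap, and SI epithelium lay between them and overlapped thymic tuft cells. The log2 difference between thymic and SI tuft cells was -1.07 (edgeR SE 0.19, adjusted p = 0.000619). SI tuft cells against SI epithelium gave 0.62 (95% interval 0.16 to 1.07, adjusted p = 0.0515) and thymic tuft cells against SI epithelium -0.45 (95% interval -0.87 to -0.03, adjusted p = 0.0673). Both lie near the threshold: without SI epithelium library 3 the first was 0.85 and called (adjusted p = 0.0179), as it was under 6 of 19 alternatives, and without thymic library 4 the second was -0.55 and called (adjusted p = 0.032). Stat6 shares 40 exon bases with Nab2 on the other strand, and Nab2 averaged 126 CPM in thymic tuft, 57.4 CPM in SI tuft and 29.7 CPM in SI epithelium libraries.

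Over the 7 members, SI tuft against SI epithelium gave 2 higher and 1 lower call, where 10.9% and 11.4% of 19281 genes were called higher and lower. Thymic against SI tuft cells gave 5 higher and 1 lower, against 28.5% and 23.1% of all genes. Thymic tuft cells against SI epithelium gave 6 higher and 0 lower, against 28.6% and 22.3%. The members' median log2 fold changes were 0.62, 3.08 and 4.50 in those comparisons, against -0.10, 0.12 and 0.15 over all genes tested. The comparisons share groups, so they are not independent of each other.

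**Figure D3:**
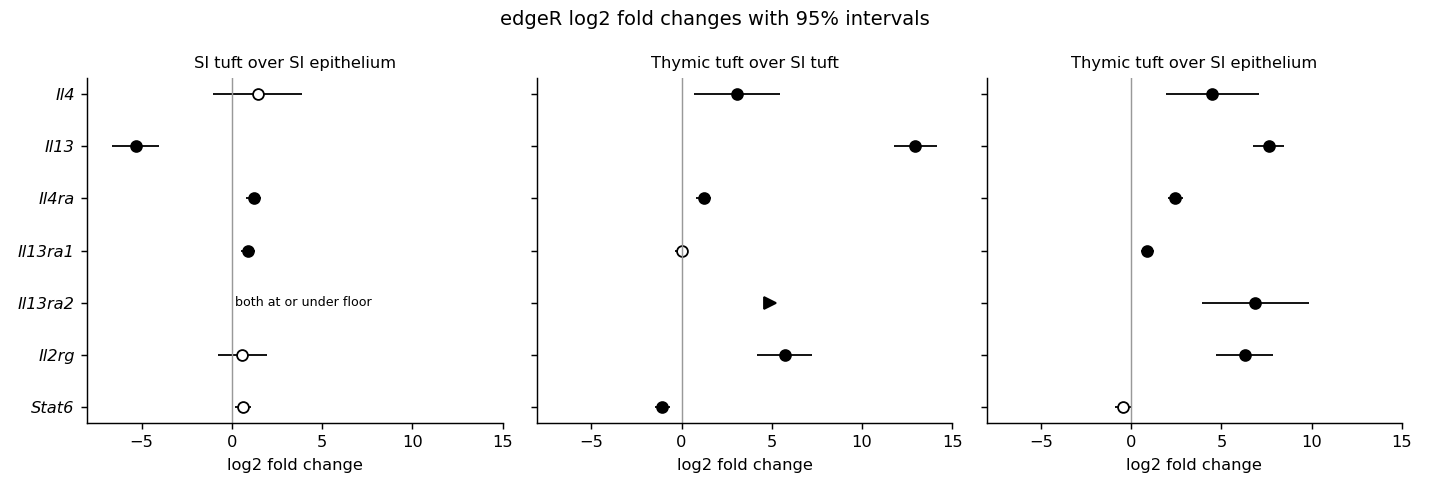
edgeR log2 fold changes of the members (x axis) in SI tuft over SI epithelium, thymic tuft over SI tuft and thymic tuft over SI epithelium; lines are 95% intervals, filled points were called and open points were not. The triangle for Il13ra2 is the lower bound against a floor of 3 counts per SI tuft library.

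The balance of receptor chains was compared within each library, as a ratio of levels per kb of exon, which does not depend on library scaling. Per kb, thymic tuft cells held nearly equal levels of both partner chains, Il2rg at 25.5 and Il13ra1 at 22.9 CPM per kb, beside Il4ra at 35.7. Such levels of different genes rest on the exon length used, which cancels only in differences between groups. How reads in the 728 exon bases that Il2rg shares with Gm20489 were counted was not tested. SI tuft cells held 0.485 CPM per kb of Il2rg, 22.6 of Il13ra1 and 15.3 of Il4ra, and SI epithelium held 0.325, 12.3 and 6.59. Stat6 stood at 33.1 CPM per kb in thymic tuft cells, 69.5 in SI tuft cells and 45.3 in SI epithelium.

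The ratio of Il13ra1 to Il2rg was 1.25, 1.15, 0.557 and 0.977 in thymic tuft libraries 1 to 4, against 28.1, 43.2 and 158 in SI tuft libraries 2 to 4 and 21.0, 99.1 and 49.6 in SI epithelium libraries 1 to 3. The thymic ratios lay below all others, while both SI groups overlapped. The log2 difference was -5.94 from SI tuft cells and -5.64 from SI epithelium. Il13ra1 to Il4ra ran from 0.489 to 0.948 in thymic tuft, 1.30 to 1.61 in SI tuft and 1.28 to 2.40 in SI epithelium libraries, and Il2rg to Il4ra from 0.424 to 1.08, 0.0102 to 0.0543 and 0.0217 to 0.114. Each thymic difference had an exact two-sided permutation p of 0.0571 (n = 4 and 3) and an adjusted p of 0.0857 over 9 ratio tests. These p-values double the smaller tail, by which 4 libraries against 3 cannot go below 0.0571 and 3 against 3 cannot go below 0.10. By absolute differences, the definition first used and replaced after its result was seen, 5 of the 6 thymic tests had an exact permutation p of 0.0286 and an adjusted p of 0.0514. In SI tuft against SI epithelium the ratios differed by -0.65 to 0.30 on the log2 scale (exact p = 0.4 to 0.8). After the shared thymic counts were subtracted, the difference turned to -1.28 for Il13ra1 to Il2rg and to 0.89 for Il2rg to Il4ra. Both also turned without SI epithelium library 1 (-0.28 and 0.11) or SI tuft library 4 (-0.43 and 0.014).

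**Figure D4:**
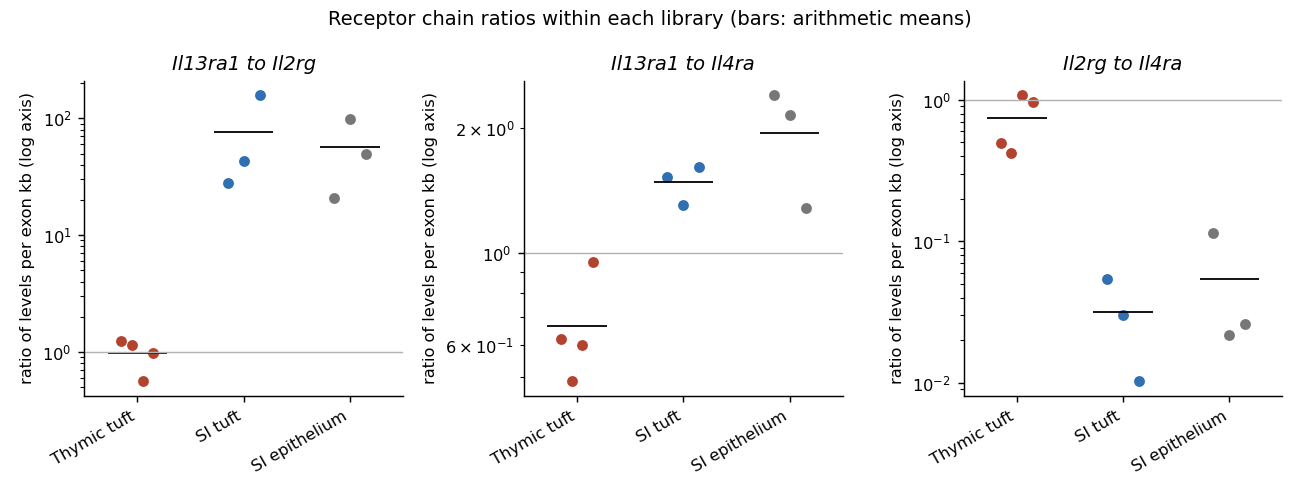
Ratios of receptor chain levels per kb of exon (y axis, logarithmic) in thymic tuft, SI tuft and SI epithelium libraries; points are libraries, bars are arithmetic means and the grey line marks equal levels. By the exon lengths used, thymic libraries lie near 1 for Il13ra1 to Il2rg, whereas SI libraries lie between 21.0 and 158.

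The kinases that the receptors use were measured in the same libraries. Jak1 averaged 199 CPM in thymic tuft, 179 CPM in SI tuft and 154 CPM in SI epithelium libraries, and Jak2 121, 115 and 83.5 CPM in those groups. Both passed the edgeR test in thymic tuft against SI epithelium (log2 fold changes 0.37 and 0.53, adjusted p = 0.0376 and 0.0173) and in no other comparison. The Jak1 call was lost under 11 of 19 alternatives (adjusted p up to 0.145), among them the removal of any 1 SI library or of thymic library 3 or 4, and that of Jak2 under 4 (up to 0.0862), among them the removal of any 1 SI epithelium library. Jak3, the kinase bound to the common gamma chain, averaged 12.1 CPM in thymic and 5.05 CPM in SI tuft cells (log2 fold change 1.26, SE 0.43, adjusted p = 0.0259), a call lost under 4 alternatives (adjusted p up to 0.0921), among them the removal of SI tuft library 2 or 3 or thymic library 2. Jak3 shares 404 exon bases with Insl3. Tyk2 averaged 42.5 CPM in thymic and 85.7 CPM in SI tuft libraries (log2 fold change -1.01, edgeR adjusted p = 0.011). Its wide spread in SI tuft cells, 45.7 to 137 CPM, overlapped the thymic libraries. The call was lost under 2 of 19 alternatives (adjusted p up to 0.0936), without SI tuft library 3 and with only the 2 groups in the fit.

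Of 15 receptor-proximal genes, SI tuft cells had 3 higher and 3 lower than SI epithelium, against 10.9% and 11.4% of all genes. The median log2 fold change of the 15 was 0.20. The 3 that rose included Ptpn6 (5.77) and Inpp5d (6.33), which encode the phosphatases SHP-1 and SHIP-1, brakes on cytokine receptor signalling. Against SI tuft cells, 6 were higher and 4 lower in thymic tuft cells (median 0.17), where 28.5% and 23.1% of all genes were called and their median was 0.12. Among the 6 were the feedback inhibitors Cish, with 79.3 CPM in thymic and 2.81 CPM in SI tuft cells (4.82, SE 0.40, adjusted p = 1.17e-06), and Socs1, with 14.7 and 1.60 CPM (3.19, SE 0.49, adjusted p = 0.000182), and the adaptor Irs1 (5.61). Thymic library 4 had 6.22 CPM of Irs1, against 28.8 to 45.9 CPM in the other thymic libraries. Ptpn6 (-1.99), Inpp5d (-1.51) and the adaptor Shc1 (-1.03) were lower in thymic tuft cells. Against SI epithelium, 10 were higher and 2 lower in thymic tuft cells (median 0.95), against 28.6% and 22.3% of all genes.

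Other STAT genes differed between the groups as well. Stat2, which serves interferon receptors, averaged 135 CPM in thymic and 325 CPM in SI tuft cells, and was lower in thymic tuft cells by edgeR (log2 fold change -1.26, SE 0.14, adjusted p = 1.29e-05), like Stat6. Against SI epithelium, Stat2 was higher in SI tuft cells (1.87, SE 0.16, adjusted p = 3.57e-06). Stat3, used by IL-6 and IL-21 receptors among others, averaged 605 CPM in thymic and 113 CPM in SI tuft cells (2.42, SE 0.18, adjusted p = 5.35e-07). Stat5a, used by the IL-2 and IL-7 receptors, averaged 70.4 and 7.17 CPM in those groups (3.30, SE 0.24, adjusted p = 4.04e-07). Stat3 and Stat5a were also higher in thymic tuft cells than in SI epithelium, by 2.47 and 3.23.

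Of 6 other chains that pair with the common gamma chain or share its receptors, SI tuft cells had 3 higher and 0 lower than SI epithelium (median 2.56). Of all genes, 10.9% and 11.4% were called higher and lower. The 3 were led by Il9r, with 39.5 CPM in SI tuft cells and 0.808 CPM in SI epithelium (5.61, SE 0.39, edgeR adjusted p = 8.49e-07). In thymic against SI tuft cells 4 were higher and 1 lower (median 1.83), against 28.5% and 23.1% of all genes. Il2ra, the IL-2 receptor alpha chain, had 35.1, 24.5, 38.1 and 17.8 CPM in thymic tuft libraries 1 to 4 and 3 counts in all over the SI tuft libraries, a ratio of summed counts of 1147 (exact 95% interval 392 to 5561, adjusted p = 2.15e-06). Il9r was lower in thymic tuft cells (-0.82, adjusted p = 0.035), a call that was lost under 11 alternatives. All 6 were higher in thymic tuft cells than in SI epithelium (median 5.07), against 28.6% of all genes. Of 5 other ligands of these receptors 2 could be tested, and Il7, made by thymic epithelium for developing T cells, was higher in thymic than in SI tuft cells (27.9 and 2.52 CPM, 3.47, SE 0.56, adjusted p = 0.000284).

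The neighbours of Il4 and Il13 in the type 2 cytokine locus were compared between thymic and SI tuft cells. Rad50, which lies between Il13 and Il5, averaged 57.3 CPM in thymic and 74.5 CPM in SI tuft libraries (log2 fold change -0.38, adjusted p = 0.0701). Kif3a, on the other side of Il4, averaged 36.2 and 18.2 CPM (0.99, SE 0.22, adjusted p = 0.00251). Il5, another type 2 cytokine gene, averaged 2.90 CPM in thymic tuft cells and had 0 counts in SI tuft cells (adjusted p = 0.000367), a difference of at least 37.2-fold against a floor of 3 counts per library. Of 6 tested genes of the locus, 2 were higher and 1 lower in thymic tuft cells, with a median of 0.72, against 28.5% and 23.1% of all genes. The lower call, Irf1 (-0.51, edgeR adjusted p = 0.0292), was lost under 12 of 19 alternatives (adjusted p up to 0.246). These included the subtraction of shared counts and the replicate number as a block. The removal of SI tuft library 3 or 4 or thymic library 2 or 4 lost it too. The same list gave 4 higher and 0 lower in thymic tuft cells against SI epithelium, where the shares of all genes were 28.6% and 22.3%. SI tuft against SI epithelium gave 2 higher and 0 lower, against 10.9% and 11.4%.

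Of 22 genes known to be induced by IL-4 or IL-13 in epithelium or macrophages, 14 were higher and 5 lower in thymic than in SI tuft cells, against 28.5% and 23.1% of all genes. The median log2 fold change was 4.41, or 3.96 with the 3 genes at 0 in SI tuft cells set to their lower bound. Serpinb2, a serpin induced by IL-13 in airway epithelium, had 152 to 179 CPM in thymic tuft libraries and 0 counts in SI tuft libraries, at least 2166-fold higher. The eosinophil chemokine gene Ccl11 had 100 to 149 CPM in thymic tuft libraries and 1 count over the SI tuft libraries, a ratio of summed counts of 13880 (exact 95% interval 2491 to 548233). Fcer2a, the low-affinity IgE receptor, averaged 49.4 CPM in thymic and 0.0181 CPM in SI tuft libraries (edgeR adjusted p = 5.21e-07). The goblet cell genes Clca1 (-1.60) and Itln1 (-1.62) were lower in thymic than in SI tuft cells, and Tgm2 too (-1.10). Clca1 and Itln1 are among the genes whose counts thymic libraries 1 to 3 share with SI epithelium: after subtraction the differences were -3.07 and -2.67.

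In SI tuft cells against SI epithelium none of the 22 was called higher by edgeR and 11 were lower. Of all genes, 10.9% and 11.4% were called higher and lower. The median of the 22 was -2.05, or -1.26 with genes at their bound. At an unadjusted p under 0.05 the count higher was also 0. Clca1, Itln1 and Ang4, products of goblet and Paneth cells, averaged 310, 95.9 and 12.3 CPM in SI tuft cells and 10851, 2678 and 465 CPM in SI epithelium. After the thymic share was subtracted, 6 genes of the list were called lower and 0 higher. Among the calls lost were those of Serpinb2, Ccl11 and Fcer2a, which are among the genes that set the share. Thymic tuft cells against SI epithelium gave 11 higher and 7 lower (median 3.22), against 28.6% and 22.3% of all genes. Higher calls included Chil4 (8.21), Fcer2a (7.65) and Serpinb2 (7.31), values that the shared counts lower. Fcer2a and Serpinb2 are themselves among the 282 genes that set the share, which had at least 2000 thymic and at most 2 SI tuft counts. Subtraction was therefore set to remove most SI epithelium counts of such genes. Their fitted values after it (14.36 and 11.57) carry no bound, so they give no rank against Chil4. Lower calls included Clca1 (-6.73), Itln1 (-6.43) and Foxa3 (-5.71), a regulator of goblet cells. The summed markers of medullary thymic epithelium, myeloid cells and B cells were also higher in thymic than in SI libraries, and so were stromal markers, led by Dcn and Pdgfrb, at 27.4 to 148 CPM in thymic tuft, 3.77 to 4.68 CPM in SI tuft and 3.69 to 4.47 CPM in SI epithelium libraries. Of 7 tested stromal genes 6 were called higher and 0 lower in thymic than in SI tuft cells, against 28.5% and 23.1% of all genes. The part of these lists in the induced genes was not tested.

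**Figure D5:**
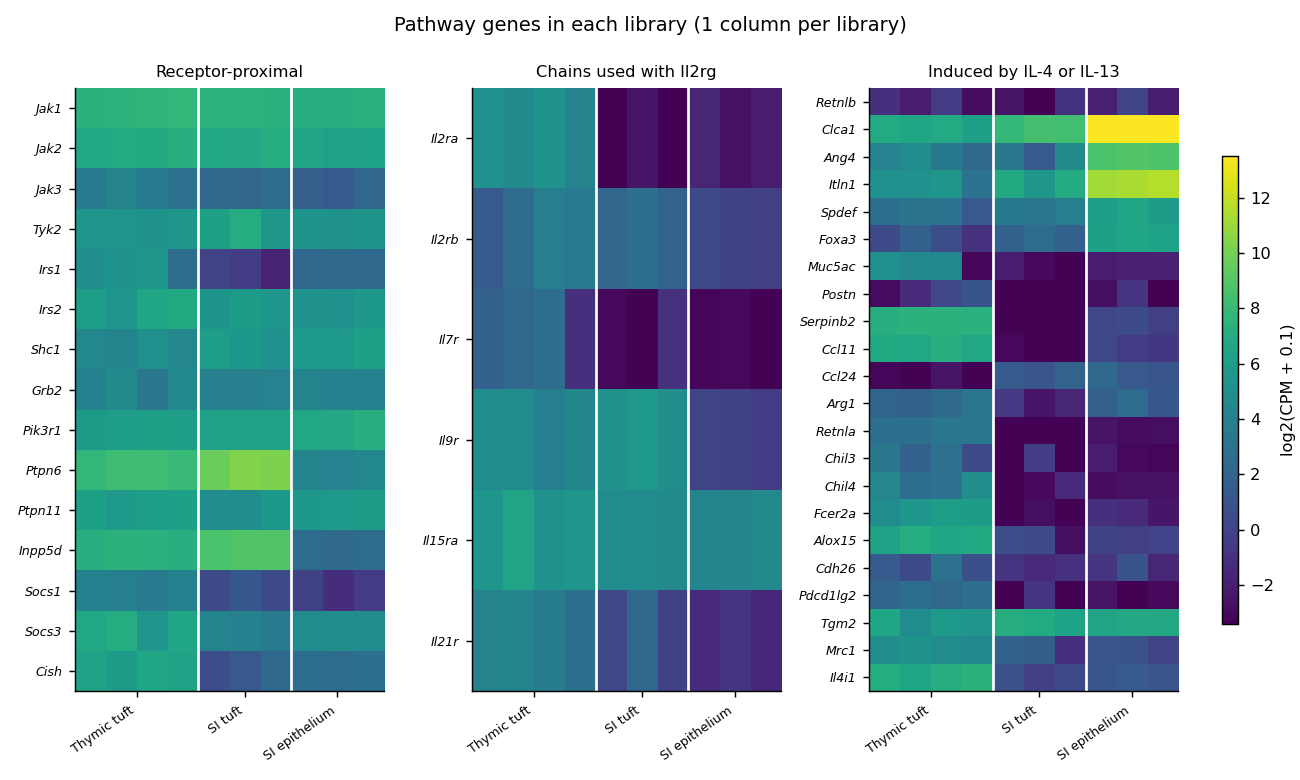
Levels of 3 gene lists as log2(CPM + 0.1) (colour) in each library (columns, by group) and gene (rows): receptor-proximal genes, chains used with Il2rg and genes induced by IL-4 or IL-13. Thymic tuft libraries are high for Cish, Socs1, Il2ra, Serpinb2 and Ccl11, and SI epithelium is high for Clca1 and Itln1.

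Over the 10 libraries, the genes most like each member were found by Pearson's r of log2 CPM among 9203 or 9204 protein-coding genes with a mean of at least 10 CPM. These correlations describe differences between 3 groups, of which the thymic group also differs in organ and preparation, and no p is given. Il13 was nearest to Ccl11 (r = 0.998), Prokr2, Krt77, Alox12e and Fscn1. Shared counts were not subtracted here. For Il13 and other genes nearly absent from SI tuft cells, r therefore also reflects thymic counts held by the SI epithelium libraries. Their part in r was not tested. Among the genes nearest to Il2rg were Manba (r = 0.993), Csf2rb, Fat3 and Krt10. Il4ra was nearest to Cyba (r = 0.988), Itm2c, Colq, Lpin1 and Kif3a. Il13ra1 was nearest to Armcx1 (r = 0.974), Dixdc1, Eid1, Bicd1 and Wbp2. Stat6 was nearest to Abcc3 (r = 0.964), Ankhd1, Skiv2l, Exosc10 and Srrt. Among those nearest to Il13ra2 were Isg20 (r = 0.988), Braf, Gca and Sgpp1. The weakest likeness was that of Il4, the member with the fewest counts in thymic tuft cells, to Zc3h12c (r = 0.955), Pttg1, Bcl9l, Mdm4 and Rnf185.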

How the data were processed

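The deposited files hold raw counts per gene. Per the submitters' processing notes, STAR, GRCm38 and DESeq2 were used, and versions are not given in the sources used here. Cells were sorted into lysis buffer, and poly(A) RNA was amplified and made into libraries with kits (NuGEN Ovation V2, then Nextera XT) that keep no strand information. The members and gene lists were chosen with earlier results of these data known. Symbols, coordinates and exon lengths came from GENCODE M21 by identifier (42548 of 43432 matched).

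Genes were kept by filterByExpr (minimum count 10, total 15), which left 19281. Counts were scaled by TMM and tested with edgeR 4.0.16 (R 4.3.3, quasi-likelihood, 1 fit over 10 libraries, Benjamini-Hochberg, FDR below 0.05). DESeq2 1.42.0 was an alternative. SE is the log2 fold change over the root of F. Floors of 3 counts and exact intervals (95%) cover counting error only. The partner of a library in shared counts was found by non-negative least squares, and the share is the median ratio to that partner. From each pathway list, up to 3 called genes each way with the largest change and at least 10 CPM in the higher group were named, the JAK genes always, the 2 most abundant genes of a marker list, and the 5 nearest genes by likeness. Il5, Rad50, Il1rl1, Fcer1a, Prss34, Cma1, Cpa3, Mcpt8 and overlapping genes were named after their values were seen. Receptor chain ratios were tested by exact permutation; the two-sided p doubles the smaller tail. A first version of that test used absolute differences, and the definition was changed after its result had been seen, so both are given in the closing section. The scripts were tested on simulated data. The labels do not say whether equal replicate numbers mark the same mouse, so the main fit modelled no pairing. Some genes that these rules select are not reported here.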

Additional observations from a re-analysis of the deposited data

Results flagged for a closer look

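Among 43 checks of the 4 thymic tuft libraries, 1 library stood apart, where chance flags about 1 in 20. Thymic tuft library 2 had 89.8 CPM of Il15ra, the IL-15 receptor alpha chain, while the other 3 had 37.4 to 45.5 CPM, a gap of 0.845 of the group's range. Its cause was not tested.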

How the results depend on the processing

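Of 592 recomputed values, 557 were counted as the same. A member's fold change was the same if it kept direction and side of the threshold. A count of genes called was the same within a set fold limit, and a chain ratio if it kept its sign, whatever its p. In each of the 9 ratio tests, the p from absolute differences and the longest transcript as gene length could not change the difference. Both were counted as the same all the same, so those values say nothing on stability. With 2 groups in the fit, SI tuft against SI epithelium had 3475 genes higher and 3513 lower, against 2101 and 2199. Leaving out 1 library gave 1462 to 2516 higher and 1426 to 2754 lower, the fewest without SI epithelium library 1 (1426) or 2 (1432). A filter of 10 CPM tests fewer genes and left 3289 higher in thymic than in SI tuft cells and 3536 higher than in SI epithelium.

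After subtraction of shared counts, Il13 in SI tuft against SI epithelium was 3.51, and the log2 ratio difference of Il13ra1 to Il2rg was -1.28 and of Il2rg to Il4ra 0.89. Leaving out 1 library, those ratios ran from -0.43 to 0.84 and from -1.19 to 0.11, turning sign without SI epithelium library 1 or SI tuft library 4. Il2rg there ran from -0.088 without SI tuft library 2 to 1.48 without SI epithelium library 1. Il13ra1 in thymic against SI tuft cells, near 0, was -0.0011 with the replicate number as a block, and leaving out 1 library ran from -0.086 to 0.084, below 0 without SI tuft library 3 or thymic library 4 (-0.05). The causes were not tested.

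In deviations from group means, same-numbered libraries correlated at -0.041 to 0.102 and differently numbered ones at -0.068 to 0.084. The pair at 0.102, thymic tuft and SI epithelium library 2, also shares counts. The labels do not say whether equal numbers mark the same mouse, and these correlations cannot decide it. With the replicate block, 4 members were higher and 1 lower in thymic against SI tuft cells, Il4 being lost (2.47, adjusted p = 0.167), and no other member's call changed. DESeq2 size factors raised the median of all genes by 0.24 and 0.23 in the thymic comparisons, with no member's call changed. Two-sided p from absolute differences, the definition first used for the chain ratios, was 0.0286 in 5 of 6 thymic tests, with an adjusted p of 0.0514, against 0.0571 and 0.0857 by the doubled tail reported. The choice was made after the first values were seen, and no ratio passed 0.05 after adjustment by either.

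Depth limits mainly Il4 and Il13ra2, with at most 91 and 227 counts per library.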
